A study of Homo sapiens with 21 samples.

Results

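Wild-type SH-SY5Y cells, a line grown from a human neuroblastoma and used as a model of sympathetic neurons, were kept with PALBO or with vehicle alone, and their transcripts were measured on PrimeView arrays. The comparison holds 6 of the 21 arrays of the series: 3 labelled wild type and PALBO treated, against 3 labelled wild type and DMSO. The other arrays carried wild-type cells given AG494, which inhibits the tyrosine kinase of the EGF receptor, or NOSCA, and APP-V717F mutant cells. All cultures, the vehicle controls included, had first spent 3 to 4 days in retinoic acid (10 µM) and brain-derived neurotrophic factor (BDNF, 50 ng/mL). Treatment lasted 72 h, and DMSO was at 0.1% in all of them. PALBO and NOSCA are the labels' own short names, and no dose is stated. All 6 arrays come from 1 cell line, so that differences between cell lines were not measured, and PALBO in APP-V717F cells was not analysed here.

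The title numbers of the arrays form 3 runs with 1 array of each group in each run, and arrays were paired by run. Values are given in the order of runs 1, 2 and 3 throughout. They are log2 intensities, where a difference of 1 is a 2-fold change. Intensities of different genes are not comparable, since each probe set binds with its own strength, so values are set against each other only for the same gene. Each gene stood for its brightest probe set, 18132 genes were tested with limma, and a gene is called higher or lower where its adjusted p was under 0.05. The array medians lay between 7.877 and 8.03. With 3 arrays a group, precision is set by that number. The labels speak of 3 independent experiments without assigning arrays to them, so the spread between these arrays may be partly technical. In bulk RNA of this kind, fewer cells with a transcript and less of it per cell cannot be told apart.

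The cells carried the transcripts that define a noradrenergic neuroblastoma line. Of 9 such markers 2 were called higher, ISL1 (0.43) and CHGA (0.49), and none lower. PHOX2A, HAND2, DBH and STMN2, which encode regulators, an enzyme and a growth protein of sympathetic neurons, averaged 12.31, 12.7, 13.32 and 13.2 under PALBO, against 12.24, 12.72, 13.29 and 13.13 under DMSO, and none was called. Of 9 immune marker genes none was called, 1 was lower at an unadjusted p under 0.05, and their mean level was 6.17 to 6.29 under PALBO and 6.25 to 6.32 under DMSO. Of 8 Schwann cell and glial markers only S100B was called, and it rose by 0.95 (SE 0.13, adjusted p = 0.00011). S100B averaged 8.14 under PALBO and 7.19 under DMSO. The mean level of the 8 was 6.46 to 6.51 under PALBO and 6.35 to 6.4 under DMSO. PTPRC, LYZ, FABP7 and CDH19, defining genes of immune and glial cells, lay below the mean levels of their lists. They ranged from 4.87 to 5.13 under PALBO and from 4.98 to 5.06 under DMSO, near the bottom of a scale beginning at 4.143. Among 10 fibroblast and smooth muscle markers 3 fell and 1 rose, and their mean level was 8.95 to 9.24 under PALBO and 9.16 to 9.46 under DMSO. The rise was that of THY1 (0.28), not called without the PALBO or the DMSO array of run 1 or 2, without the block, or with only 6 or 12 arrays. Of 10 epithelial and endothelial markers KRT19 alone was called, higher by 0.43, and it was not called without the block or without the PALBO array of run 1 or 3 or the DMSO array of run 1 or 2. Their mean level was 6.33 to 6.39 under PALBO and 6.20 to 6.37 under DMSO.

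Cell division is driven by waves of transcription. In G1 phase, cyclin D with CDK4 or CDK6 phosphorylates the retinoblastoma protein (RB) and its relatives p107 and p130, which releases E2F transcription factors and turns on the genes of DNA replication. Later, MYBL2 and FOXM1 with the MuvB complex turn on the genes of mitosis through an element called the cell cycle genes homology region (CHR), at which the DREAM complex of p130 or p107 represses the same genes in resting cells. In neuroblastoma lines, retinoic acid and BDNF are used to slow division and to bring out neurites and neuronal transcripts.

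Under PALBO, most measured genes of mitosis (83 of 104), DNA replication (32 of 52) and replication-dependent histones (46 of 53) fell, as did 15 of 28 p53 targets. Of genes of the neuronal cytoskeleton 18 of 35 rose, of the synaptic vesicle 15 of 33 and of catecholamine and peptide handling 11 of 27, and the others of these 3 lists were not called, apart from 1 fall in the last. The replication, p53, cytoskeleton and vesicle counts depended on the model and on the arrays fitted, as given with each list. Across the alternatives tried, 15 to 35 replication genes and 9 to 20 p53 targets were called lower. Most replication genes were thus not called lower in every alternative. Genes called higher numbered 8 to 20 for the cytoskeleton and 4 to 18 for the vesicle. Of the 18132 genes, 2729 were called (15.1%), 1397 of them higher (7.70%) and 1332 lower (7.35%). The median change of all genes was 0.004. Most calls were small: 38 genes rose and 52 fell at least 2-fold. With the run left out of the model 564 genes were called higher and 701 lower, and without the PALBO array of run 2 the model called 808 higher and 1054 lower.

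**Figure D1:**
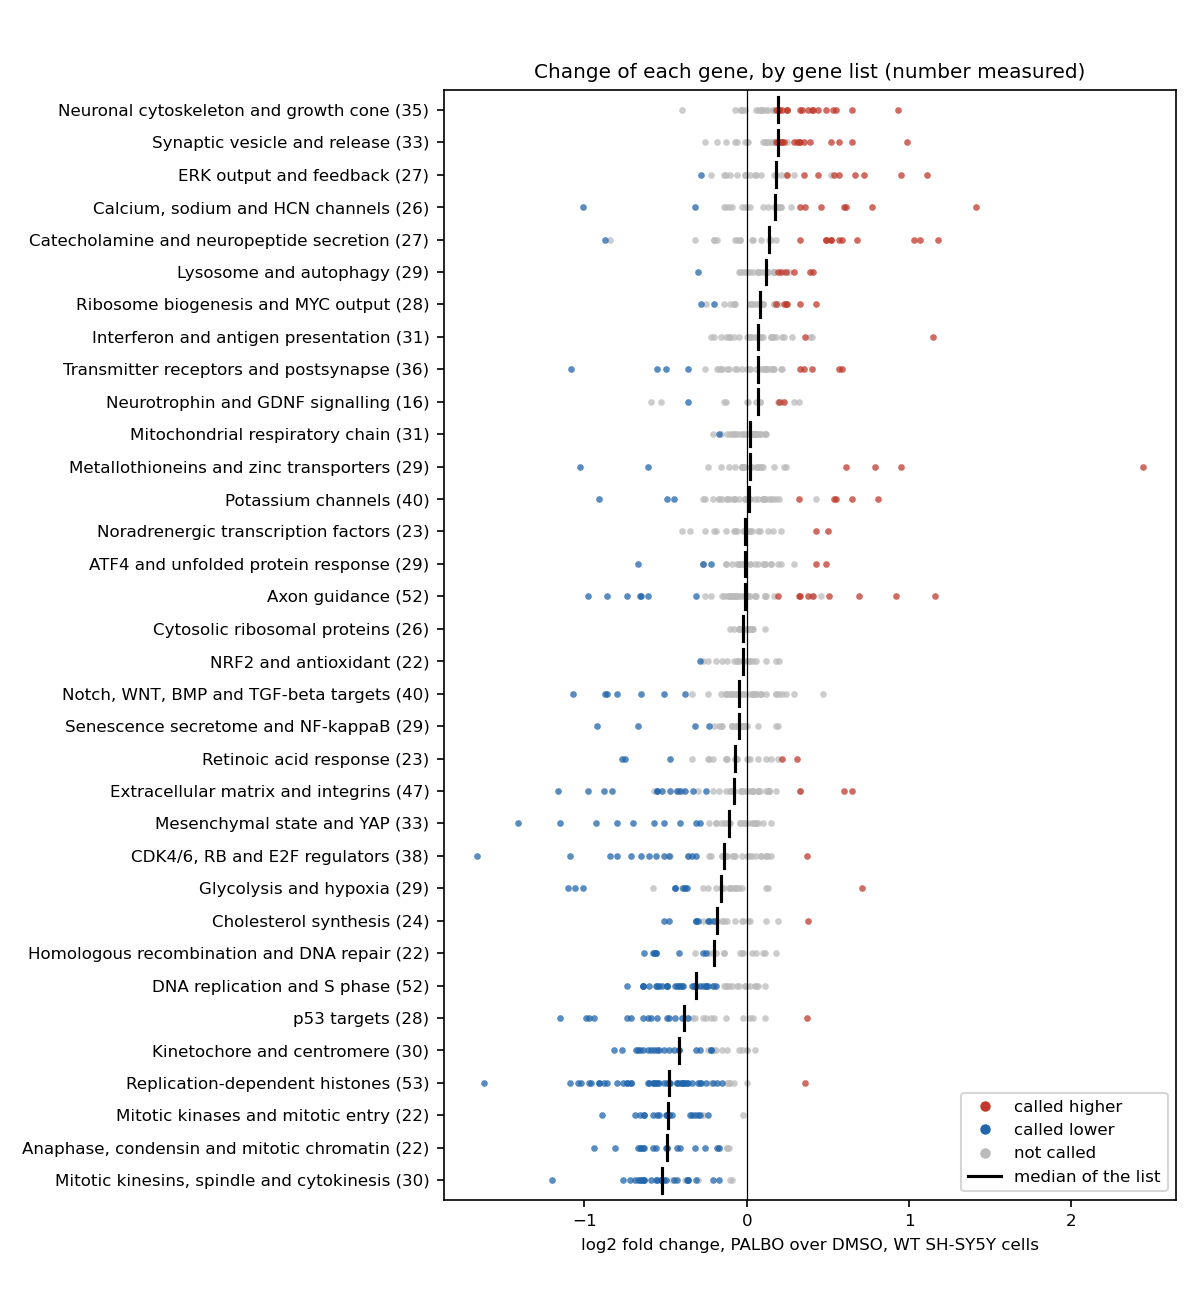
The horizontal axis gives the log2 fold change of PALBO over DMSO for each member (point) of 34 gene lists (lines), with the number measured in brackets, the list's median as a black bar, and colours for genes called higher, called lower or not called. The 4 mitotic lists and the histones lie furthest to the left, with medians of -0.421 to -0.519, and the neuronal cytoskeleton and synaptic vesicle lists lie furthest to the right, with medians of 0.192 each.

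Genes of mitosis were lower in all 4 lists that held them. Of 104 genes measured in 4 lists (mitotic kinases, kinetochore, spindle and cytokinesis, anaphase and condensin), 83 were called lower and none higher (median -0.484). At an unadjusted p under 0.05 limma gave 92 lower and 0 higher. All 3 PALBO arrays lay below all 3 DMSO arrays for 86 of the 104, where 10.4% of all genes did so.

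Upstream sequence is shown for 4 of these genes to let the CHR be seen in the genes that fell: MKI67, PLK1, CCNB2 and CDC20. The stretches run from 80 bases to 1 base before the annotated start, 5′ to 3′ on the gene's strand (RefSeq, GRCh38.p14), and the capitals mark each match to TTTGAA, the core of the CHR. MKI67 lies on the minus strand at chr10:128126424-128126503, PLK1 on the plus strand at chr16:23678809-23678888, CCNB2 on the plus strand at chr15:59105066-59105145 and CDC20 on the plus strand at chr1:43358901-43358980.
MKI67: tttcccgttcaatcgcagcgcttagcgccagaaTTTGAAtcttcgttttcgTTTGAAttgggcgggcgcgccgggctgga
PLK1: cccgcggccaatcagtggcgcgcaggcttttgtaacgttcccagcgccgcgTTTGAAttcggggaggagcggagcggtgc
CCNB2: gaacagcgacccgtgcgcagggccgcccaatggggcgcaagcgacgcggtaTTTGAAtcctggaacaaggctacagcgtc
CDC20: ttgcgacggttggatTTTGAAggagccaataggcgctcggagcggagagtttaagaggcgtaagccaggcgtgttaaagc
In PLK1 and CCNB2 the match began 29 bases before the start, in MKI67 matches began 47 and 29 bases before it, and in CDC20 the match began 65 bases before it.

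Windows from 250 bases before to 50 after the start were held for 86 of the 104 mitotic genes and for 14425 of all tested genes, and both strands were searched. TTTGAA occurred in 64.0% of the mitotic windows and in 12.1% of all windows. In the 25 bases just before the start the shares were 18.6% of mitotic windows and 0.756% of all windows. Among genes called lower 17.0% of windows held it, among genes called higher 6.87%, and among genes not called 12.1%. CCAAT, the element bound by NF-Y, occurred in 68.6% of mitotic windows and 36.4% of all windows. No motif searched contains another, and a match describes the sequence alone.

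**Figure D2:**
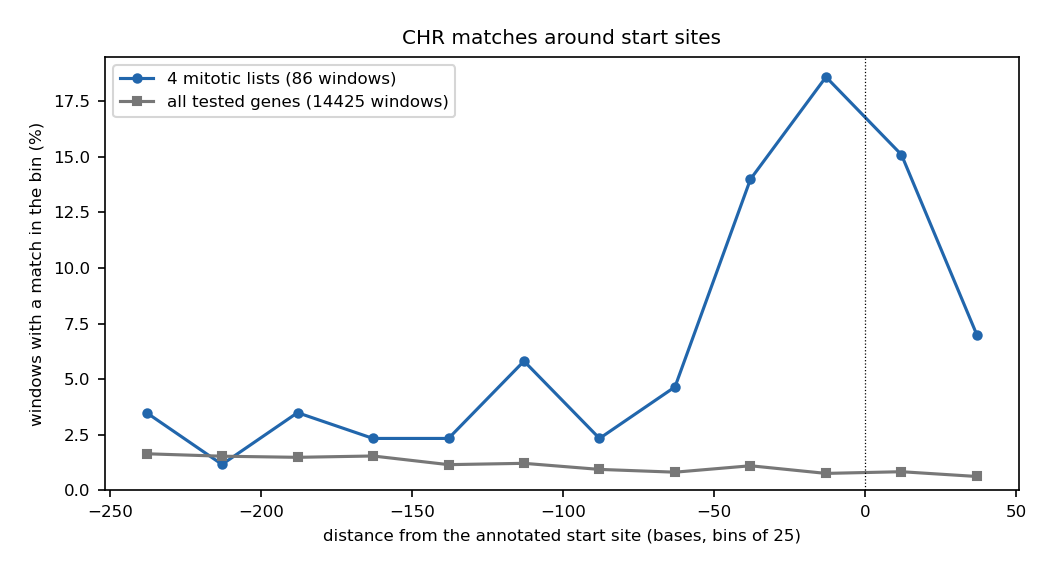
The horizontal axis gives the distance from the annotated start in bins of 25 bases, and the vertical axis the percentage of windows with a CHR match beginning in the bin, for the 86 windows of mitotic genes (blue circles) and all 14425 windows (grey squares). The mitotic line reaches 18.6% in the bin just before the start, where the line of all genes is at 0.756%.

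Among the motors and spindle proteins, 25 of 30 fell (median -0.519). KIF20A, a kinesin needed for cytokinesis, stood at 9.74, 9.95 and 9.63 under PALBO, against 10.99, 11.0 and 10.93 under DMSO. The groups were wide apart, and the change was -1.20 (SE 0.09, adjusted p = 2.3e-07). ASPM, which focuses the spindle poles, fell by 0.76, and the microtubule depolymerising kinesin KIF2C fell by 0.72. The kinesins KIF18B, KIF14, KIF4A and KIF11 fell by 0.67, 0.63, 0.63 and 0.59. RACGAP1 (-0.10), a partner of KIF23 in the midzone, and KIF15 (-0.46) were not called.

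Mitotic kinases and their activators fell in 20 of 22 cases (median -0.486). AURKB, the kinase of the chromosomal passenger complex, had 10.6, 11.03 and 10.59 under PALBO, against 11.56, 11.66 and 11.67 under DMSO, a change of -0.89 (SE 0.09, adjusted p = 3.9e-06). The groups did not overlap, and the PALBO array of run 2 was the nearest to the vehicle arrays. PLK1, whose CHR is printed above, had 10.94, 11.1 and 10.8 under PALBO, against 11.53, 11.62 and 11.6 under DMSO (-0.63, SE 0.07, adjusted p = 1.8e-05). CDK1, the kinase that starts mitosis, fell by 0.63, its cyclins CCNB2 by 0.58 and CCNB1 by 0.34. NEK2 fell by 0.69 and AURKA by 0.50. PKMYT1, which inhibits CDK1, stayed at -0.02 and MELK at -0.27, and neither was called.

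Of 30 kinetochore and centromere genes, 20 fell (median -0.421), among them the kinetochore motor CENPE (-0.82), the microtubule-binding NDC80 complex members SPC25 (-0.77), NUF2 (-0.66) and NDC80 (-0.64), and the centromeric histone CENPA (-0.68) with its chaperone HJURP (-0.67). BUB3 (-0.03) and MAD2L1 (-0.12) of the spindle checkpoint were not called. Of 22 anaphase and condensin genes, 18 fell (median -0.487). MKI67, whose protein coats mitotic chromosomes and marks dividing cells, had 10.39, 10.99 and 10.6 under PALBO, against 11.38, 11.42 and 11.6 under DMSO. It fell by 0.81 (SE 0.12, adjusted p = 0.00024), and the groups did not overlap. CDC20, the activator of the anaphase-promoting complex, fell by 0.65, separase (ESPL1) by 0.66, the condensin subunit NCAPH by 0.67 and topoisomerase TOP2A by 0.56.

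DNA replication genes fell less evenly: 32 of 52 were called lower and none higher (median -0.312), and at an unadjusted p under 0.05 limma gave 39 lower and 0 higher. CDT1, which loads the replicative helicase, had 9.7, 9.81 and 9.59 under PALBO, against 10.24, 10.35 and 10.73 under DMSO. It fell by 0.74 (SE 0.09, adjusted p = 3.3e-05) and the groups did not overlap. PCNA, the sliding clamp of the polymerases, had 11.0, 10.84 and 11.01 under PALBO, against 11.54, 11.33 and 11.55 under DMSO (-0.52, SE 0.05, adjusted p = 5.8e-06), again without overlap. PRIM1 and POLA2, subunits of the complex of primase and polymerase alpha, fell by 0.64 each, GINS2 of the helicase by 0.60, POLE2 by 0.56, thymidylate synthase (TYMS) by 0.49 and the CDT1 inhibitor geminin (GMNN) by 0.49.

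The helicase itself was mixed. MCM2 fell by 0.25, and MCM4 and MCM6 were also called lower, while MCM3 (-0.06), MCM5 (0.07) and MCM7 (-0.11) were not called. MCM5 had 10.3, 10.3 and 10.33 under PALBO, against 9.93, 10.21 and 10.58 under DMSO, so that the vehicle arrays spread on both sides of the PALBO arrays. With the fit reduced to the 6 arrays compared, 15 replication genes were called lower.

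CDT1, PCNA and RBL1, which encodes p107, are shown with the stretch from 80 bases to 1 base before their start, because their windows hold an E2F motif and their transcripts fell. The capitals mark TTTCCCGC or TTTGGCGC read on either strand, so that GCGGGAAA is a match on the other strand. CDT1 lies at chr16:88803709-88803788 (plus strand), PCNA at chr20:5126623-5126702 (minus strand) and RBL1 at chr20:37095998-37096077 (minus strand), all from RefSeq, GRCh38.p14.
CDT1: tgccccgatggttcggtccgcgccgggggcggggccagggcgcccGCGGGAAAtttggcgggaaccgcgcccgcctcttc
PCNA: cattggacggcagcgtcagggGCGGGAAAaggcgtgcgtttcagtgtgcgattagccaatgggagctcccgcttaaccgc
RBL1: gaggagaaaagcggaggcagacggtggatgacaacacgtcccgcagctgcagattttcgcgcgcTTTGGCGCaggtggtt
One of the motifs occurred in 40.0% of the 45 replication windows and in 3.11% of all windows. The mitotic windows held one in 5.81% of cases. The replication windows in turn held TTTGAA in 6.67%.

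The regulators of the G1/S transition did not move as a block: of 38 measured, 13 were called lower and 1 higher, with a median of -0.141. The kinases and cyclins at the top were near their vehicle levels. CDK4 had 12.85, 12.89 and 12.93 under PALBO, against 12.83, 12.98 and 12.87 under DMSO, and the groups overlapped (0.00, SE 0.07, adjusted p = 0.99). CDK6 (0.09), CCND1 (0.12), CCND3 (0.13), RB1 (-0.15), E2F1 (-0.03), E2F3 (0.03) and RBL2 (0.02), which encodes p130, were not called either. E2F1 had 9.69, 9.99 and 9.85 under PALBO, against 9.61, 9.91 and 10.09 under DMSO.

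CCNE1 and CCNE2, which encode the cyclins E that drive entry into S phase, moved in opposite directions. CCNE1 had 11.36, 11.42 and 11.36 under PALBO, against 11.04, 10.86 and 11.13 under DMSO, and rose by 0.37 (SE 0.06, adjusted p = 0.0005). CCNE2 had 8.99, 8.84 and 8.82 under PALBO, against 9.46, 9.33 and 9.79 under DMSO, and fell by 0.65 (SE 0.1, adjusted p = 0.00043). Neither gene's groups overlapped. In the 6-array fit CCNE1 was no longer called (adjusted p = 0.058).

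Repressors that E2F itself turns on fell. E2F7 had 8.4, 8.46 and 8.29 under PALBO, against 9.56, 9.39 and 9.45 under DMSO, a change of -1.09 (SE 0.07, adjusted p = 1.4e-07) with wide separation. E2F8 fell by 0.84 and RBL1 by 0.80. The activators of the mitotic wave fell as well: FOXM1 by 0.60 and MYBL2 by 0.51. Cyclin A (CCNA2) fell by 0.56, its partner CDK2 by 0.48, and the E2F dimer partner TFDP1 by 0.36. The MuvB members LIN9 (0.15), LIN37 (0.12), LIN52 (-0.13) and LIN54 (0.06) were not called.

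Inhibitors of the CIP/KIP family, which bind cyclin-dependent kinases, were lower. CDKN1C, encoding p57, had 9.1, 8.79 and 8.56 under PALBO, against 11.53, 10.44 and 9.44 under DMSO. The groups did not overlap, and the vehicle arrays were spread wider than the PALBO arrays (-1.66, SE 0.25, adjusted p = 0.00023). CDKN1A, encoding p21, had 11.94, 12.02 and 12.1 under PALBO, against 12.95, 12.97 and 12.25 under DMSO, so that run 3 showed little difference (-0.71, SE 0.13, adjusted p = 0.0015). CDKN1A was not called in the 6-array fit (adjusted p = 0.057). CDKN1B, encoding p27, fell by 0.31 (SE 0.09, adjusted p = 0.027), and it was not called without the block (adjusted p = 0.16), in the 6-array fit (0.096), or without the PALBO array of run 1 (0.13) or run 3 (0.056) or the DMSO array of run 1 (0.11). The INK4 genes CDKN2A (-0.47, SE 0.22, adjusted p = 0.17), CDKN2B (0.01) and CDKN2D (-0.08) were not called. CDKN2A nevertheless had 9.24, 9.14 and 8.75 under PALBO, against 9.73, 9.51 and 9.28 under DMSO, without overlap. Of its 3 probe sets, 1 was called lower.

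**Figure D3:**
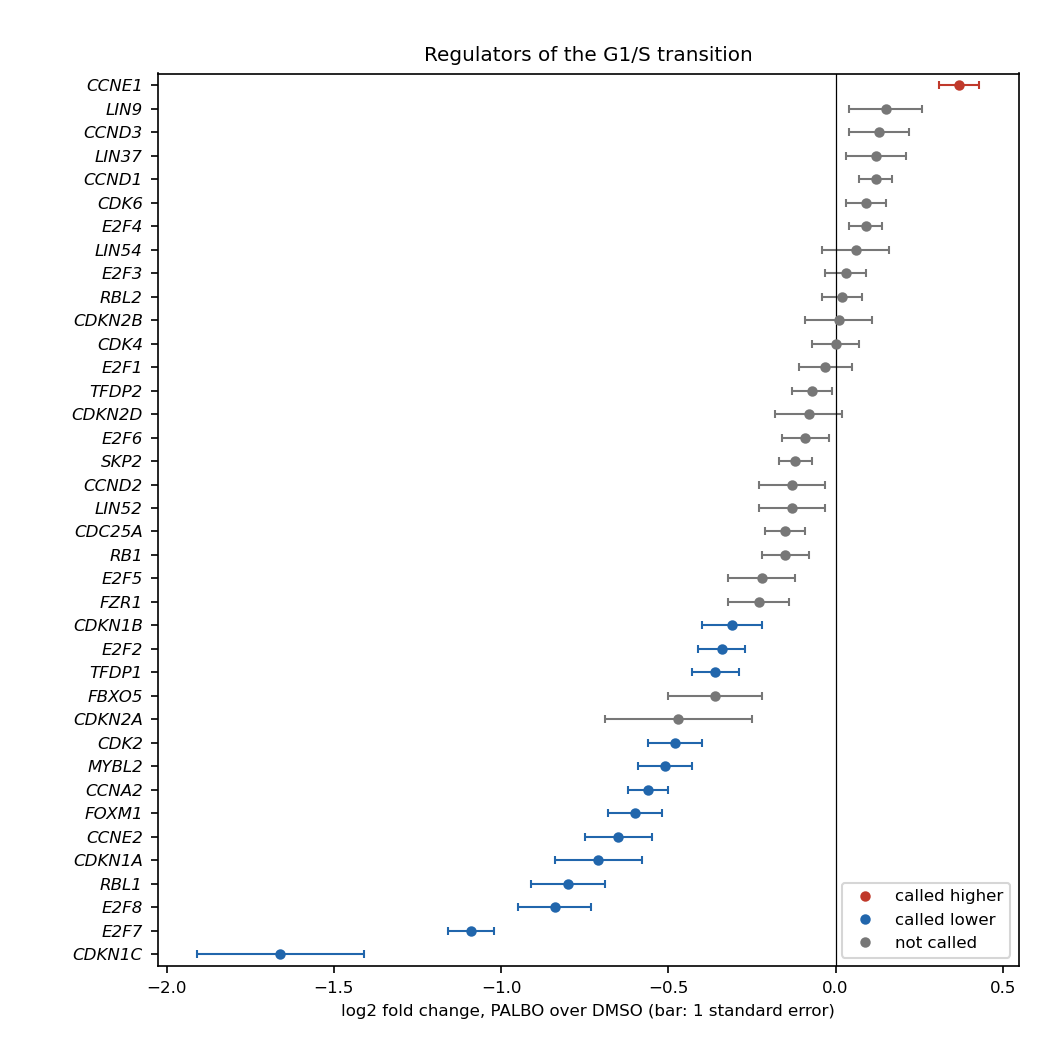
Each of the 38 regulators is a line, ordered by its log2 fold change of PALBO over DMSO on the horizontal axis, with a bar of 1 standard error and colours for called higher, called lower and not called. CCNE1 alone is called higher, at 0.37, and 13 genes are called lower, down to CDKN1C at -1.66.

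The genes of the replication-dependent histones, which package newly made DNA and whose transcripts normally end without a poly(A) tail, fell almost throughout: 46 of 53 were called lower and 1 higher, with a median of -0.484. On chromosome 6 there were 42 lower of 48, and on chromosome 1 there were 4 lower and 1 higher of 5. All 12 genes for H2A and all 10 for H3 were called lower, as were 12 of 16 for H2B, 4 of 5 for H1 and 8 of 10 for H4. H2AC21 had 11.56, 11.58 and 11.25 under PALBO, against 12.46, 12.38 and 12.46 under DMSO (-0.97, SE 0.08, adjusted p = 1e-06). H3C12 fell by 1.09, the linker histone H1-3 by 1.04 and H2BC3 by 1.02. The groups of these 4 genes did not overlap.

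H2AC25 had the largest fall of the list, with 9.47, 9.35 and 9.27 under PALBO, against 10.84, 10.69 and 11.42 under DMSO (-1.62, SE 0.14, adjusted p = 1.3e-06). H2BC21 was the exception, at 8.23, 7.76 and 7.76 under PALBO, against 7.72, 7.44 and 7.5 under DMSO (0.36, SE 0.11, adjusted p = 0.033). The count of histone genes called higher was 0 when any of the 6 arrays was left out except the DMSO array of run 2. SLBP, whose protein binds the end of histone transcripts, fell by 0.32. Copies of histone genes are nearly identical in sequence, so that one probe set may bind transcripts of several. CCAAT occurred in 89.6% of 48 histone windows and TTTGAA in 35.4%.

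Repair genes of homologous recombination, which acts in S and G2 phase, were called lower in 8 of 22 cases and higher in none (median -0.201), with 11 lower and 0 higher at an unadjusted p under 0.05 in limma. BARD1, the partner of BRCA1, had 9.01, 8.95 and 8.89 under PALBO, against 9.54, 9.55 and 9.67 under DMSO, and fell by 0.63 (SE 0.07, adjusted p = 2.5e-05) without overlap. The checkpoint kinase CHEK1 fell by 0.58 and the recombination motor RAD54L by 0.57. BRCA1 (-0.23), BLM (-0.19) and ATR (0.06) were not called. The 6-array fit called 5 lower.

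Among 28 target genes of p53, the transcription factor of the DNA damage response, 15 were called lower and 1 higher, with a median of -0.386. The runs differed: the median difference between PALBO and DMSO was -0.72 in run 1, -0.50 in run 2 and -0.07 in run 3. DDB2, a sensor of damaged DNA, had 8.91, 8.9 and 9.02 under PALBO, against 10.06, 9.96 and 9.72 under DMSO (-0.97, SE 0.08, adjusted p = 8.6e-07). POLH, the translesion polymerase, had 8.3, 8.35 and 7.91 under PALBO, against 9.54, 9.17 and 8.8 under DMSO (-0.99, SE 0.12, adjusted p = 2.7e-05). For both genes the groups did not overlap.

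EDA2R, a death receptor relative, had 7.96, 8.07 and 8.09 under PALBO, against 9.26, 9.26 and 8.43 under DMSO (-0.94, SE 0.18, adjusted p = 0.0014). As with CDKN1A, the DMSO array of run 3 was the lowest of the vehicle arrays. GADD45A fell by 1.15, the p53 phosphatase PPM1D by 0.74, the death receptor TNFRSF10B by 0.61 and MDM2, the ligase that degrades p53, by 0.44. TP53I3, a quinone oxidoreductase, had 11.29, 11.51 and 11.46 under PALBO, against 10.84, 11.23 and 11.08 under DMSO, and rose by 0.37 (SE 0.1, adjusted p = 0.016); without the PALBO array of run 2 or 3, or the DMSO array of run 1, the list had no gene called higher. BAX (-0.37), BBC3 (-0.13) and FAS (-0.32), which act in cell death, were not called. In the 6-array fit 9 p53 targets were called lower.

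**Figure D4:**
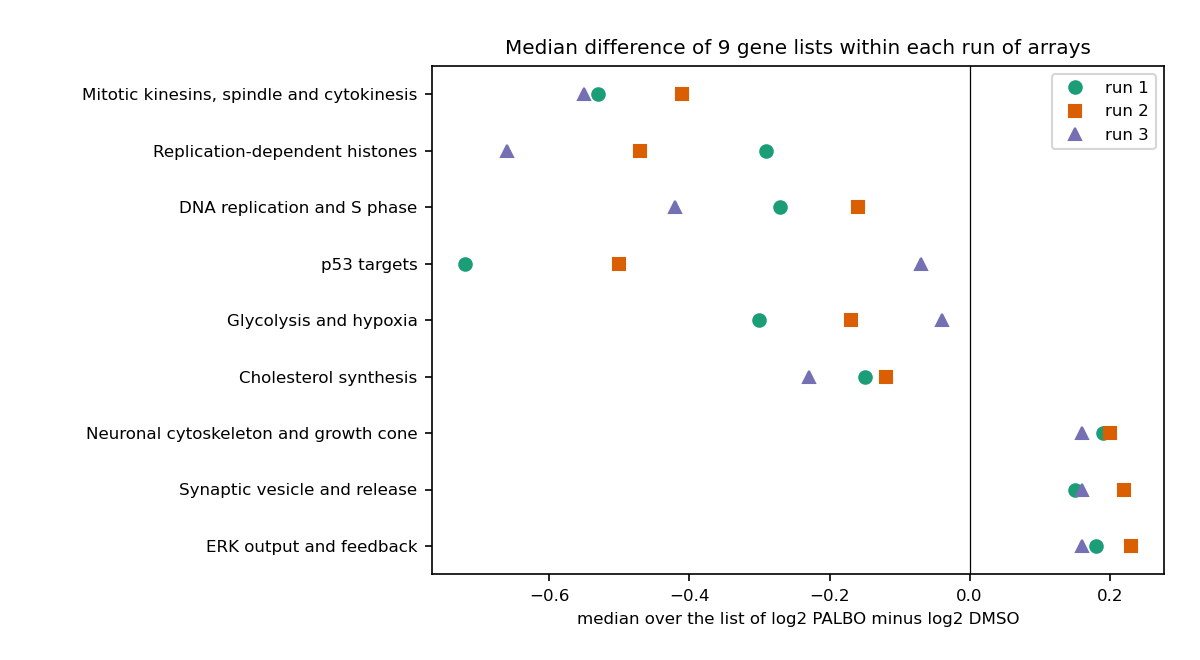
For 9 gene lists (lines) the horizontal axis gives the median over the list of the log2 difference between the PALBO and the DMSO array of the same run, with 1 symbol for each run. The p53 targets span -0.72 (run 1) to -0.07 (run 3) and the glycolysis and hypoxia genes -0.30 to -0.04, while the spindle genes keep to -0.41 to -0.55 and the synaptic vesicle genes to 0.15 to 0.22.

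Neuronal cytoskeleton genes rose: 18 of 35 were called higher and none lower, with a median of 0.192. At an unadjusted p under 0.05 limma gave 20 higher and 1 lower. DCX, a microtubule protein of young neurons, had 11.69, 11.8 and 11.9 under PALBO, against 10.52, 11.07 and 11.01 under DMSO, and rose by 0.93 (SE 0.12, adjusted p = 5.7e-05) with no overlap. KIF5A, a motor of axonal transport, had 11.69, 11.61 and 12.01 under PALBO, against 10.89, 11.05 and 11.44 under DMSO (0.65, SE 0.1, adjusted p = 0.00021). Its PALBO arrays were all above the vehicle arrays. KIF5C rose by 0.34.

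MAPT, which encodes tau, had 10.84, 11.23 and 11.37 under PALBO, against 10.35, 10.66 and 10.78 under DMSO, a change of 0.55 (SE 0.06, adjusted p = 6.7e-06). The step was close to equal in the 3 runs, and without the block it was not called (adjusted p = 0.074). CEND1, which favours exit from the cell cycle in neurons, rose by 0.49 and the microtubule stabiliser MAP6 by 0.44. GAP43 of the growth cone rose by 0.33 and TUBB3, the neuronal tubulin, by 0.20. Genes not called included STMN2 (0.07), NEFL (-0.07), NEFM (0.12) and MAP2 (0.16). The count of called genes was 8 without the block and 8 in the 6-array fit, 9 without the PALBO array of run 2 and 11 without the DMSO array of run 1.

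Synaptic vesicle and release genes gave 15 called higher and none lower of 33 (median 0.192), and at an unadjusted p under 0.05 limma gave 18 higher and 0 lower. SYT5, a calcium sensor of dense-core vesicles, had 9.66, 9.96 and 10.12 under PALBO, against 8.89, 9.0 and 8.87 under DMSO. It rose by 0.99 (SE 0.12, adjusted p = 2.1e-05), and the groups were apart. SYT4, another synaptotagmin, rose by 0.65, synapsin SYN2 by 0.33, the vesicle GTPase RAB3A by 0.31, synaptophysin (SYP) by 0.29 and the SNARE genes SNAP25 and VAMP2 by 0.18 and 0.19. CPLX1 (-0.07), CPLX2 (-0.26) and DNM1 (-0.13) were not called. The block mattered here too: 5 genes were called without it, 4 in the 6-array fit, 7 without the PALBO array of run 2 and 9 without that of run 3.

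The CHR letters TTTGAA occurred in 0 of the 26 cytoskeleton windows and 0 of the 27 vesicle windows held, against 12.1% of all windows.

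Genes for catecholamine handling and secreted peptides rose in 11 of 27 cases and fell in 1 (median 0.137). NPY, the sympathetic co-transmitter neuropeptide Y, had 11.77, 11.69 and 11.6 under PALBO, against 10.68, 10.68 and 10.17 under DMSO, a rise of 1.18 (SE 0.12, adjusted p = 9.1e-06) with wide separation. CHGB, a granin that packs secretory granules, had 12.94, 12.8 and 12.63 under PALBO, against 12.09, 12.13 and 12.11 under DMSO (0.68, SE 0.09, adjusted p = 4.9e-05), and its relatives CHGA and SCG2 rose by 0.49 and 0.52. The noradrenaline transporter SLC6A2 rose by 0.57, GCH1, which makes the cofactor of catecholamine synthesis, by 0.59, and the degrading enzymes MAOA and MAOB by 0.52 and 1.07. The synthetic enzymes TH (-0.32), DDC (0.18) and DBH (0.03) were not called. TH had 8.36, 9.28 and 8.2 under PALBO, against 9.61, 9.29 and 7.91 under DMSO, a spread larger than its difference. Neurotensin (NTS) fell by 0.87. Of 23 noradrenergic transcription factors ISL1 (0.43) and INSM2 (0.50) rose, and HAND2 (-0.02) and MYCN (0.01) were not called. These 2 rises were near the share of 7.70% of all genes called higher.

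Of 26 genes for calcium, sodium and HCN channels, 7 rose and 2 fell (median 0.174), beside 7.70% and 7.35% of all genes. The count of falls was thus near the share over all genes. The falls numbered 1 without the block, in the 6-array fit, and without the PALBO array of run 2 or 3 or the DMSO array of run 3. CACNA2D3, an auxiliary calcium channel subunit, had 7.22, 8.07 and 8.32 under PALBO, against 5.91, 6.27 and 7.19 under DMSO, and rose by 1.41 (SE 0.19, adjusted p = 0.0001). The PALBO array of run 1 and the DMSO array of run 3 almost met. CACNA1B, the pore of N-type channels, rose by 0.77, and the sodium channels SCN9A, SCN2A and SCN3A rose by 0.61, 0.60 and 0.36. SCN4B, an auxiliary sodium channel subunit, fell by 1.01. Of 40 potassium channel genes, 5 rose and 3 fell, with KCNMA1 at 0.81 and KCNH1 at 0.65 among the rises and KCNAB1 at -0.91 among the falls. The median was 0.014, and without the block 3 were called higher. These counts were near the shares over all genes, 7.70% higher and 7.35% lower. Of 36 receptor and postsynaptic genes 5 rose, such as SHANK3 (0.59) and the muscarinic receptor CHRM3 (0.40), and 4 fell, such as the glutamate receptor GRM8 (-1.08), again beside 7.70% and 7.35% of all genes. The 6-array fit called 2 higher and 2 lower, and the falls numbered 1 without the PALBO array of run 2 and 2 without that of run 3 or the DMSO array of run 1 or 2.

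**Figure D5:**
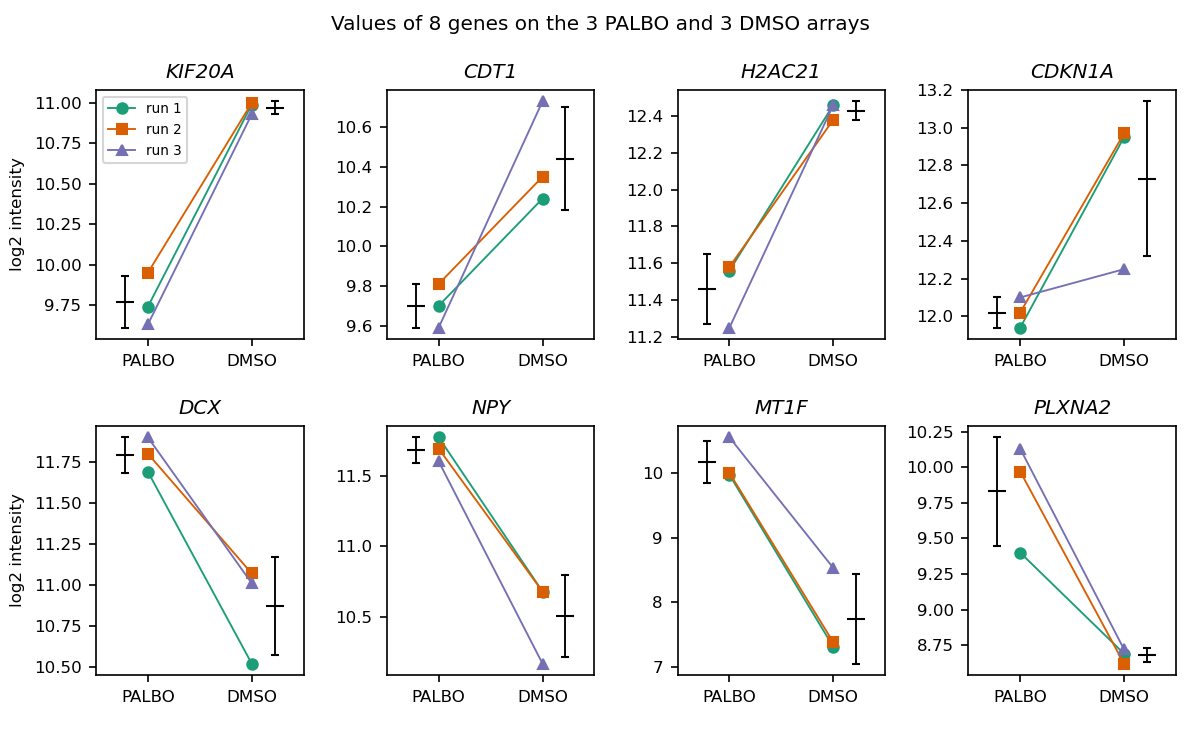
The log2 intensity (vertical axis) of 8 genes is shown on the PALBO arrays (left in each panel) and the DMSO arrays (right), with lines joining arrays of a run and black bars for the mean and SD of each group. KIF20A, CDT1, H2AC21 and CDKN1A are lower and DCX, NPY, MT1F and PLXNA2 higher in the PALBO array of every run, and CDKN1A differs least in run 3, at 12.1 against 12.25.

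Axon guidance genes moved in both directions, with 9 of 52 higher and 7 lower (median -0.011), beside 7.70% and 7.35% of all genes. PLXNA2, a semaphorin receptor, had 9.4, 9.97 and 10.13 under PALBO, against 8.69, 8.62 and 8.72 under DMSO, and rose by 1.16 (SE 0.11, adjusted p = 3.7e-06) without overlap. Its co-receptor NRP1 rose by 0.92 and the ligand SEMA3A by 0.69. SEMA5A fell by 0.98, the receptor PLXNC1 by 0.86, the ephrin receptor EPHB4 by 0.74 and the repellent SLIT2 by 0.61. The count of rises was 4 without the block and in the 6-array fit, 4 without the PALBO array of run 2, and 5 without the PALBO array of run 3 or the DMSO array of run 2.

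Genes of the mesenchymal neuroblastoma state and of YAP signalling fell in 10 of 33 cases and rose in none (median -0.112). Of all genes 7.35% were called lower. At an unadjusted p under 0.05 limma gave 13 lower and 0 higher for the list. SOX9, a transcription factor of neural crest and cartilage, had 8.67, 8.84 and 8.8 under PALBO, against 10.21, 10.45 and 9.89 under DMSO, a change of -1.41 (SE 0.14, adjusted p = 6e-06). YAP1, the coactivator restrained by the Hippo pathway, had 7.93, 7.9 and 7.91 under PALBO, against 8.92, 8.88 and 8.72 under DMSO (-0.93, SE 0.09, adjusted p = 3.8e-06). The groups of both genes were well apart. The intermediate filament VIM fell by 0.41 and the YAP target CCN1 by 0.51, while CCN2 (0.07), ANKRD1 (-0.04) and PRRX1 (0.03) were not called. Without the block 6 were called lower.

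Of 47 matrix and integrin genes 13 fell and 3 rose (median -0.085), beside 7.35% and 7.70% of all genes. The rises were thus near the share over all genes. The crosslinking oxidase LOXL2 had 9.26, 9.72 and 9.29 under PALBO, against 10.82, 10.76 and 10.17 under DMSO (-1.16, SE 0.12, adjusted p = 1e-05), with no overlap, and LAMA1, LOX and COL1A1 fell by 0.98, 0.83 and 0.88. The proteoglycan SPOCK1 rose by 0.65 and the integrin ITGA3 by 0.60. Without the block 8 matrix genes were called lower. The fibroblast marker COL3A1 was not called (0.04). ACTA2, the smooth muscle actin, had 7.88, 8.37 and 8.34 under PALBO, against 9.49, 9.9 and 8.66 under DMSO (-1.15, SE 0.23, adjusted p = 0.002), and 1 of its 3 probe sets was called. The part of fibroblast-like cells in these changes was not tested.

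Metallothioneins bind zinc and copper, and their genes are turned on by zinc through MTF1. MT1F had the largest rise among called genes whose groups did not overlap (2.44, or 5.41-fold, SE 0.21, adjusted p = 1.3e-06). It had 9.97, 10.0 and 10.55 under PALBO, against 7.31, 7.38 and 8.53 under DMSO. MT1F was also higher than DMSO under AG494 (1.37, adjusted p = 0.0029) and under NOSCA (1.51, adjusted p = 0.0045). Set directly against these compounds, PALBO was higher by 1.06 (adjusted p = 0.0033) and 0.92 (adjusted p = 0.0097). MT1X rose by 0.79 and SLC30A1, which exports zinc from the cell, by 0.95. MT2A (-0.03), MT1E (-0.02), MT1G (0.02) and MTF1 (-0.02) were not called. In the list of 29 there were 4 rises and 2 falls, the zinc importers SLC39A8 (-1.03, not called as the mean of its probe sets, adjusted p = 0.17) and SLC39A10 (-0.61). Of all genes 7.70% were called higher and 7.35% lower. Metallothionein genes are near copies of each other, and probe sets may bind several of them.

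Outputs and feedback inhibitors of the ERK pathway rose in 9 of 27 cases and fell in 1 (median 0.183), beside 7.70% and 7.35% of all genes. DUSP5, a nuclear ERK phosphatase, had 8.03, 8.2 and 8.35 under PALBO, against 7.28, 7.09 and 7.35 under DMSO (0.95, SE 0.13, adjusted p = 7.2e-05), without overlap. PHLDA1 rose by 1.11, the ETS factor ETV1 by 0.57 and the feedback inhibitor SPRY2 by 0.35. SPRY4 was called higher at its brightest probe set (0.54), but another of its probe sets was called lower at -0.69. FOS (-0.01), DUSP6 (0.17) and MYC (0.52) were not called. Without the block 4 of the list were called higher, and ETV1 was not (adjusted p = 0.061). The 1 fall of this list was not called without the block, in the 6-array fit, with array weights, or without the PALBO array of run 1 or 3 or the DMSO array of run 2.

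Of 24 genes for cholesterol and fatty acid synthesis 8 fell and 1 rose (median -0.187), beside 7.35% and 7.70% of all genes. INSIG1, the sterol-sensing retention protein, had 10.97, 10.82 and 10.62 under PALBO, against 11.58, 11.19 and 11.18 under DMSO (-0.51, SE 0.09, adjusted p = 0.00076). SREBF1, the transcription factor of lipid synthesis, fell by 0.48. Neither overlapped between the groups. TM7SF2, a sterol reductase, rose by 0.38. The count of falls was 4 without the block, 2 in the 6-array fit and 4 without the PALBO array of run 3.

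Genes of glycolysis and hypoxia fell in 8 of 29 cases and rose in 1 (median -0.159), beside 7.35% and 7.70% of all genes. As for the p53 targets the runs differed, with medians of -0.30, -0.17 and -0.04. ADM, the vasodilator peptide adrenomedullin, had 7.6, 7.22 and 7.34 under PALBO, against 9.27, 8.28 and 7.93 under DMSO (-1.10, SE 0.19, adjusted p = 0.00066). VEGFA had 10.38, 10.39 and 10.09 under PALBO, against 11.59, 11.26 and 9.74 under DMSO, and was not called (-0.58, adjusted p = 0.29). The vehicle arrays of both genes were high in run 1 and low in run 3. The falls numbered 2 without the DMSO array of run 1, 5 without its run 2 counterpart, 5 without the PALBO array of run 1 or of run 3, 3 without the block and 4 in the 6-array fit. NDRG1, a stress-responsive gene of the list, rose by 0.71 (SE 0.08, adjusted p = 1.8e-05) and had 10.25, 10.09 and 10.11 under PALBO, against 9.34, 9.48 and 9.5 under DMSO.

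Other programmes were little touched. Their counts stand beside 7.70% of all genes called higher and 7.35% called lower. Of 26 cytosolic ribosomal protein genes 0 were called and 0 had an unadjusted p under 0.05 in limma. The range of their changes was -0.10 to 0.11. Of 31 respiratory chain genes 1 was called, SDHA at -0.17, in a call lost without the block (adjusted p = 0.2), in the 6-array fit (0.25), with the 12 wild-type arrays (0.071), as the mean of its probe sets (0.16), and when any array but the PALBO array of run 1 was left out. Of 29 genes of the senescence secretome and NF-kappaB none rose and 4 fell, with 0 higher and 5 lower at an unadjusted p under 0.05. IL6 (-0.04) and CXCL8 (-0.06) were not called, and CXCL8 had 5.42, 5.23 and 5.37 under PALBO, against 5.44, 5.71 and 5.03 under DMSO. PLAUR, the urokinase receptor, fell by 0.67. Of 31 interferon genes 2 rose, IFI44 by 1.15 and IFI6 by 0.36; the call of IFI6 was lost without the block (adjusted p = 0.41), in the 6-array fit (0.13), and without the PALBO array of run 2 (adjusted p = 0.059) or 3 (0.18) or the DMSO array of run 2 (0.063) or 3 (0.13).

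Smaller counts came from the remaining lists, to be read beside the 7.70% of all genes called higher and the 7.35% called lower. Of 29 genes for lysosome and autophagy 6 were called higher and 1 lower (2 higher without the block and in the 6-array fit, 3 without the PALBO array of run 1 or 2). Of 28 ribosome biogenesis genes 6 were called higher and 2 lower (2 higher without the block, 1 in the 6-array fit, 2 or 3 without the PALBO or DMSO array of run 1 or 2). Of 29 genes of the ATF4 and unfolded protein responses 2 were called higher and 3 lower, of 22 NRF2 targets 0 and 1, and of 16 genes of neurotrophin and GDNF signalling 2 and 1, all near those shares. The neurotrophin rises numbered 0 without the block, in the 6-array fit and without the PALBO array of run 3, and 1 without the PALBO array of run 1 or 2 or the DMSO array of run 1. The falls of that list numbered 0 without the block, and 2 in the 6-array fit and without the PALBO array of run 1. For the NRF2 targets, limma gave 1 higher and 3 lower at an unadjusted p under 0.05.

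The agents used to differentiate the cultures act through retinoic acid receptors and TrkB. Of 23 retinoic acid genes 3 were called lower and 2 higher, beside 7.35% and 7.70% of all genes. At an unadjusted p under 0.05 limma gave 9 lower and 2 higher. RARB (-0.07), CYP26A1 (-0.23), both targets of retinoic acid, and the TrkB gene NTRK2 (-0.13) were not called. CYP26A1 had 12.37, 12.33 and 12.24 under PALBO, against 12.89, 12.55 and 12.2 under DMSO. Of the 23 retinoic acid genes HOXD4 (-0.77), NEDD9 (-0.75) and RXRA (-0.47) fell and RXRB (0.31) and STRA6 (0.22) rose. The rise of RXRB was lost in the 6-array fit (adjusted p = 0.065) and as the mean of its probe sets (0.09, adjusted p = 0.46). The rise of STRA6 was lost without the block (adjusted p = 0.073), in the 6-array fit (0.13), as the mean of its probe sets (0.38), and when any array but the PALBO array of run 3 was left out. APP, the gene mutated in the other line of the series, was not called in wild-type cells (-0.08, SE 0.07, adjusted p = 0.53).

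In the Notch, WNT, BMP and TGF-beta list 7 of 40 fell and none rose (median -0.044), beside 7.35% and 7.70% of all genes. At an unadjusted p under 0.05 limma gave 9 lower and 4 higher. SMAD6, an inhibitor of BMP signalling, had 6.6, 6.01 and 6.15 under PALBO, against 7.57, 7.19 and 7.21 under DMSO (-1.07, SE 0.09, adjusted p = 1.3e-06). LEF1 fell by 0.87, HES1 by 0.80 and ID2 by 0.65. The groups did not overlap for these 4 genes, and 1 of 3 probe sets of SMAD6 and 1 of 5 of HES1 was called. As the mean of its probe sets HES1 was at -0.21 and not called (adjusted p = 0.07).

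Outside the lists stood 2339 of the called genes, some of the largest changes among them. SKAP2, an adaptor of Src family kinases, had the largest fall among called genes whose groups did not overlap (-1.80, SE 0.17, adjusted p = 2.9e-06). It had 7.56, 7.7 and 7.48 under PALBO, against 9.76, 9.23 and 9.14 under DMSO. SKAP2 was also lower than DMSO under AG494 (-0.96, adjusted p = 0.0065) and under NOSCA (-0.85, adjusted p = 0.04). Directly, PALBO differed from them by -0.84 (adjusted p = 0.0036) and -0.94 (adjusted p = 0.0015). OLFM1, a secreted neuronal glycoprotein, fell by 1.69, the ISG15 ligase HERC5 by 1.61 and the ETS factor ELF4 by 1.60. NIBAN1, a stress-responsive gene, had 5.88, 6.5 and 6.34 under PALBO, against 7.91, 7.75 and 8.07 under DMSO (-1.67, SE 0.14, adjusted p = 9.7e-07). These 5 genes were named by a rule that took only called genes whose groups did not overlap.

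Among the rises outside the lists, SYBU, which encodes syntabulin, a link between kinesin-1 and axonal cargo, had 8.93, 8.88 and 8.78 under PALBO, against 7.39, 7.21 and 7.24 under DMSO (1.58, SE 0.1, adjusted p = 1.3e-07). IFITM10 rose by 1.59, the synaptic adhesion protein FLRT1 by 1.56, the diacylglycerol kinase DGKB by 1.31, the fatty acid binding protein FABP3 by 1.30 and LMO2, a LIM-domain transcription cofactor, by 1.19. They were named by the same rule, so that PALBO arrays had to lie above DMSO arrays for all of them.

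PALBO cultures were also set directly against wild-type cultures given AG494 or NOSCA, which shares no vehicle array, at doses the labels do not state. Against AG494 1577 genes were called (8.70%), 3.95% of all genes higher and 4.74% lower. Against NOSCA 1311 were called (7.23%), 3.17% higher and 4.06% lower. Of the 104 mitotic genes, 53 were lower against AG494 and 66 against NOSCA, and of 52 replication genes 31 and 27 were. Histone genes gave 32 and 41 lower of 53, and p53 targets 15 and 20 of 28. Cytoskeleton genes were higher in 16 and 14 of 35 cases and vesicle genes in 11 and 8 of 33. The ERK and the glycolysis lists gave fewer calls here than against DMSO. Of 27 ERK genes, 9 of them higher than DMSO, 1 was higher and 1 lower against AG494, and 3 were higher and 4 lower against NOSCA. Of 29 glycolysis and hypoxia genes, 8 of them lower than DMSO, 1 was lower and 1 higher against AG494, and 0 were lower and 2 higher against NOSCA. Both sets of counts rest on the same 3 PALBO arrays. Without the block 218 were higher and 371 lower against AG494, and 205 higher and 380 lower against NOSCA.

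Several genes also differed between PALBO and each of the other compounds. KIF20A averaged 9.77 ± 0.16 under PALBO, 10.59 ± 0.26 under AG494, 10.81 ± 0.03 under NOSCA and 10.97 ± 0.04 under DMSO (SD, n = 3 each), and it was lower than under AG494 by -0.81 (adjusted p = 1.8e-05) and than under NOSCA by -1.03 (adjusted p = 3.1e-06). CDT1 averaged 9.7 ± 0.11 under PALBO, 10.36 ± 0.11 under AG494, 10.42 ± 0.18 under NOSCA and 10.44 ± 0.26 under DMSO, and was lower than under AG494 (-0.66, adjusted p = 0.00018) and NOSCA (-0.72, adjusted p = 0.0001). CDKN1A averaged 12.02 ± 0.08 under PALBO, 12.8 ± 0.13 under AG494, 13.05 ± 0.14 under NOSCA and 12.73 ± 0.41 under DMSO, with direct differences of -0.79 (adjusted p = 0.0011) and -1.04 (adjusted p = 0.00015). In these 3 genes the AG494 and NOSCA means lay nearer to the DMSO mean than to the PALBO mean. KIF20A was nevertheless lower under AG494 than under DMSO (-0.38, adjusted p = 0.027), and not called under NOSCA (-0.16, adjusted p = 0.42). Against DMSO, AG494 had 2 mitotic kinase, 1 kinetochore, 4 spindle and 3 anaphase genes called lower, and NOSCA had 0 in each list.

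SYT5 and MAPT were higher under PALBO than under each of the other compounds, and NIBAN1 was lower. SYT5 averaged 9.91 ± 0.23 under PALBO, 8.87 ± 0.27 under AG494, 9.16 ± 0.09 under NOSCA and 8.92 ± 0.07 under DMSO, with direct differences of 1.04 (adjusted p = 2.7e-05) and 0.76 (adjusted p = 0.00051). MAPT averaged 11.15 ± 0.27 under PALBO, 10.4 ± 0.31 under AG494, 10.46 ± 0.23 under NOSCA and 10.6 ± 0.22 under DMSO. MAPT was higher under PALBO by 0.75 against AG494 (adjusted p = 1.7e-06) and by 0.68 against NOSCA (adjusted p = 3.1e-06). NIBAN1 averaged 6.24 ± 0.32 under PALBO, 7.98 ± 0.08 under AG494, 7.97 ± 0.32 under NOSCA and 7.91 ± 0.16 under DMSO, and was lower by -1.74 (adjusted p = 2e-06) and -1.73 (adjusted p = 2.3e-06).

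Other genes differed from vehicle under PALBO and were not called against the other compounds. SLC30A1 averaged 9.91 ± 0.08 under PALBO, 9.84 ± 0.24 under AG494, 9.8 ± 0.09 under NOSCA and 8.96 ± 0.27 under DMSO. H2AC25 averaged 9.36 ± 0.1 under PALBO, 9.61 ± 0.09 under AG494, 9.83 ± 0.13 under NOSCA and 10.98 ± 0.38 under DMSO, with direct differences of -0.25 (adjusted p = 0.36) and -0.46 (adjusted p = 0.052). SREBF1 averaged 10.07 ± 0.07 under PALBO, 10.16 ± 0.15 under AG494, 10.13 ± 0.18 under NOSCA and 10.54 ± 0.12 under DMSO. Cholesterol genes as a list had none lower against AG494 or NOSCA, and 4 were higher against AG494. CDKN1C (direct differences -0.46 and -0.61), MT1X (0.22 and 0.17) and ETV1 (0.00 and 0.19) were not called in either direct comparison. The vehicle arrays are shared by all 3 comparisons with DMSO, and a deviation of those arrays and a response to every compound cannot be told apart for such genes. H2BC21 was called higher against DMSO and lower against AG494 (-0.37, adjusted p = 0.043) and NOSCA (-0.45, adjusted p = 0.016). It averaged 7.92 ± 0.27 under PALBO, 8.29 ± 0.12 under AG494, 8.37 ± 0.42 under NOSCA and 7.56 ± 0.15 under DMSO.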

How the data were processed

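RNA was amplified from 25 ng of total RNA and hybridised to Affymetrix PrimeView arrays, per the labels' protocols. Arrays were normalised by RMA with the affy package according to the submitters' processing notes, which give no version here, and the values the authors deposited are on a log2 scale. Of 49372 probe sets 44988 named 1 gene, and each of 18132 genes stood for its probe set with the highest mean over the 21 arrays.

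Groups came from the labels. limma 3.58.1 in R 4.3.3 (lmFit, eBayes) was fitted to all 21 arrays with group and run as terms, with Benjamini-Hochberg adjustment within each contrast and a two-sided threshold of 0.05. The runs are those of the title numbers 1 to 10, 11 to 20 and 21 to 30. Deviations from the group means correlated at 0.226 to 0.685 within runs (63 pairs) and at -0.529 to 0.0889 between runs (126 pairs). The fit was tested on simulated data. The genes named by rule are the 15 largest rises and falls without overlap, up to 6 called members with the largest change from each of 34 gene lists and 5 marker lists, all regulators of CDK4/6, RB and E2F, APP, and members not called that define a pathway. Other called members, the families and the opposed probe sets were named after their values were seen. The members and lists were chosen with earlier results of these data known. Motifs were searched in RefSeq promoter windows (GRCh38.p14). Alternatives were the model without the run, fewer arrays, other probe set rules, normalisations and variance settings, and each array left out.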

Additional observations from a re-analysis of the deposited data

Results flagged for a closer look

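Probe sets that name no gene or several were not used above. Of 4305 such sets 472 were called between PALBO and DMSO: 152 higher and 137 lower among those with no symbol, and 90 higher and 93 lower among those with several. A set shared by H3C14, H3C15, H3-7 and H3C13 changed by -1.77.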

How the results depend on the processing

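With no replicate block (the run left out of the model), called genes numbered 1265 for PALBO against DMSO (564 higher, 701 lower), 589 against AG494 (218 higher, 371 lower) and 585 against NOSCA (205 higher, 380 lower). A fit of the 6 arrays compared called 1185 against DMSO (535 higher, 650 lower), with fewer residual degrees of freedom. The other whole-set alternatives against DMSO gave 2617 to 3199. Leaving out 1 array gave 1862 to 2492 called against DMSO (808 to 1253 higher, 943 to 1239 lower), 890 to 1251 against AG494 (340 to 565 higher, 527 to 713 lower) and 823 to 1112 against NOSCA (290 to 496 higher, 480 to 649 lower). Against AG494 the counts without the PALBO array of run 3 were 974 (447 higher, 527 lower), without the AG494 array of run 1 they were 890 (340 higher, 550 lower), and 394 were higher without the PALBO array of run 2. Against NOSCA 323 were higher without the PALBO array of run 2, 823 were called without that of run 3 (343 higher, 480 lower), and 858 (290 higher) and 850 (354 higher) without the NOSCA array of run 2 or 3. Of 208 named and called genes 146 were called under all 15 settings, 44 were not called without the block and 36 not in the 6-array fit, and 0 changed direction. Beside fewer arrays, the cause of these shifts was not tested.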

Other observations

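Kinesin and synaptotagmin genes were grouped after their values were seen. They stand beside 7.70% of all genes called higher and 7.35% called lower. Of 42 kinesin genes 13 were called lower and 8 higher, and the higher ones included KIF5A (0.65), KIF9 (0.51) and KIF5C (0.34), of which KIF5A and KIF5C carry cargo along axons. KIF1B, also counted as higher, had 3 probe sets called higher and 2 called lower. Of 16 synaptotagmin genes, a family that includes calcium sensors of membrane fusion, 7 were called higher and none lower. They ran from SYT5 (0.99) and SYT4 (0.65) to SYT1 (0.23). Of 21 centromere protein genes 9 were called lower and none higher.

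Of 1513 genes with at least 2 called probe sets, 23 had sets called in opposite directions, RUFY3, TPM1 and AFDN among them.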
